A study of Mus musculus with 9 samples.

Results

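*Tnnc1* and *Mylk*, 2 genes of the contractile apparatus, were chosen by their higher signal 24 h after low-intensity pulsed ultrasound (LIPUS) on these same arrays. Another 8 genes of smooth muscle and of the thin filament were set beside them by function, *Acta2*, *Actg2*, *Tagln*, *Cnn1*, *Myl9*, *Tpm1*, *Tpm2* and *Des*, with results of these arrays already known. All probe sets that the annotation of the array gives to one of these 10 symbols were used, which were 21 of the 45037 probe sets compared, for 10 of 18193 genes. *Tpm1* and *Tpm2* have 4 probe sets each, *Mylk* and *Acta2* have 3 each, *Des* has 2, and each of the other genes has 1. None of the 10 genes lies on a probe set with several symbols. Because the 24 h arrays guided the choice, the values of the members at 24 h, against the control and against 6 h, are given as a description with no p-value. The comparison of 6 h with the control was tested, though it shares the control arrays with the 24 h comparison that guided the choice.

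Contraction in muscle rests on myosin pulling on filaments of actin. In cardiac and skeletal muscle, calcium acts on the thin filament, where troponin C binds it and moves tropomyosin along the actin. In smooth muscle, and in the stress fibers of cells outside muscle, calcium acts on the myosin side, where calmodulin activates myosin light chain kinase and the kinase phosphorylates the regulatory light chain of myosin. Bone-forming cells in culture carry such stress fibers, and serum response factor (SRF) is a known activator of many of the genes concerned.

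The cells were MC3T3-E1, an established line of preosteoblasts derived from the calvaria of newborn C57BL/6 mice, grown for 14 days with ascorbic acid and beta-glycerophosphate and seeded again 24 h before the exposure. LIPUS was given through the bottom of the dish at 30 mW/cm2 and 1.5 MHz for 20 min, and the groups were mock-treated control cells, cells 6 h after LIPUS and cells 24 h after LIPUS, with 3 arrays in each. The arrays carry the replicate numbers 1 to 3, which are called experiments 1, 2 and 3 below, and every LIPUS array was set against the control array of its own number. Values are log2 signals made by the robust multi-array average (RMA) method, so that 1 unit is a 2-fold difference, and differences were fitted with limma with the experiment as a block. The sources used here do not give the time for which mock-treated cells were cultured, so that time in culture and LIPUS cannot be told apart in any difference from the control. In a whole culture, fewer cells of a type and less RNA per cell cannot be told apart either.

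The median log2 signal of the arrays lay between 4.89 and 5.15 and followed the experiment more than the group. The arrays of experiments 2 and 3 hold many repeated values, with 13358 to 20047 distinct values against 40716 to 40936 in experiment 1. In experiment 2, 48.4% of all probe sets, and 8 of the 21 here, had exactly the same value at 24 h and in the control. Of the 9 measured markers of the osteoblast lineage 7 lay above the median signal, and *Col1a1* and *Col1a2* were near the top of the range, at percentiles 99.4 and 100 of the mean signal.

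The sequence before the transcription start is shown for 5 of the genes that the results turn on. The RefSeq table used here holds a window for 8 of the 10 genes on build GRCm38.p6. In each the 250 bases before the start were searched for the CArG box, the site that SRF binds, which reads the same on both strands, and for sites that differ from it by 1 letter. Capitals mark these sites and all other bases are in lower case, from 5′ to 3′ on the strand of the gene. *Tnnc1* (chr14:31208062-31208311, plus strand) and *Mylk* (chr16:34784700-34784949, plus strand, at the start that the table uses) are shown because their rises at 24 h led to the choice of the genes. *Tpm1* (chr9:67049214-67049463, minus strand) is a gene whose rise differed between its probe sets, and *Acta2* (chr19:34255374-34255623, minus strand) one with little difference at its brightest probe set. *Myl9* (chr2:156775214-156775463, plus strand) is the one of the 8 with an exact CArG box.
Tnnc1: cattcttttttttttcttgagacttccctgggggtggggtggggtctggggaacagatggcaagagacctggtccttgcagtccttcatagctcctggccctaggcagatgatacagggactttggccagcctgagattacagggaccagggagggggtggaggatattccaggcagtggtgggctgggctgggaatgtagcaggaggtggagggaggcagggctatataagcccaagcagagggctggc
Mylk: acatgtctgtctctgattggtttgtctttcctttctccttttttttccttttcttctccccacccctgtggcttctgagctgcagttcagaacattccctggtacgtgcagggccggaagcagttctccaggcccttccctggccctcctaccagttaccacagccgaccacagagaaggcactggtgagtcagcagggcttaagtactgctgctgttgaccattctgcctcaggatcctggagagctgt
Tpm1: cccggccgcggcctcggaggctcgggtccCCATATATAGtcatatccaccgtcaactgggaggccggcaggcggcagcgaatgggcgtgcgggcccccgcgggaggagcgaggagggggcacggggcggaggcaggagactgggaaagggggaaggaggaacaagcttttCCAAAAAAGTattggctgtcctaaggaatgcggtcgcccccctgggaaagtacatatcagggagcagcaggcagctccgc
Acta2: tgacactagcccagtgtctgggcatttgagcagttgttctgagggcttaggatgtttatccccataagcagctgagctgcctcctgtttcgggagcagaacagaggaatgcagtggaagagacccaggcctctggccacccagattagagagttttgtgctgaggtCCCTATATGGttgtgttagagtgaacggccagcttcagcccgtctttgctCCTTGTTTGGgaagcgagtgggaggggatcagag
Myl9: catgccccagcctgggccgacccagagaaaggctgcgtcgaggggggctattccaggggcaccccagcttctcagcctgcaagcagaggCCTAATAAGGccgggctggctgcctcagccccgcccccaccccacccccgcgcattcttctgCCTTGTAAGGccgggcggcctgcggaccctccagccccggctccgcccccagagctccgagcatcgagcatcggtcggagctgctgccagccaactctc

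The window of *Myl9* holds an exact CArG box that begins 161 bases before the start and a near match at 99 bases. *Acta2* has near matches at 84 and 34 bases, and *Tpm1* has them at 221 and 80 bases. *Tnnc1* and *Mylk* have none in this window. Of the 32851 windows in the table, 1.47% hold an exact box and 18.6% hold one with at most 1 letter off, against 1 and 3 of the 8 windows here. A match is a string of letters and was not tested as a binding site.

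At 24 h after LIPUS the contractile genes did not move as one group. The calcium sensor *Tnnc1* was 2.44-fold higher than the control, *Mylk* was about 1.5-fold higher at its brighter probe sets, *Tpm1* rose by a similar amount at 1 probe set and by less at another, and *Cnn1* rose less. The smooth muscle actins *Acta2* and *Actg2*, together with *Tagln* and *Tpm2*, had fitted differences within 0.06 log2 units of the control at their brightest probe sets. Of the 21 probe sets 6 passed limma at an adjusted p under 0.05, all higher, and they stand for 4 of the 10 genes. Over all probe sets 2.73% passed in either direction and 1.8% were higher, and nothing is read from the count because the 24 h arrays chose *Tnnc1* and *Mylk*. The median log2 difference was 0.13 over the 21 and 0 over all probe sets. The count was 0 without the replicate block, 1 with only the 6 arrays of the groups compared, 0 without experiment 1 and 3 without experiment 2. Over all 45037 probe sets the count of 1229 became 1, 5, 0 and 49 under the same settings, so that the loss was not particular to the members.

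**Figure D1:**
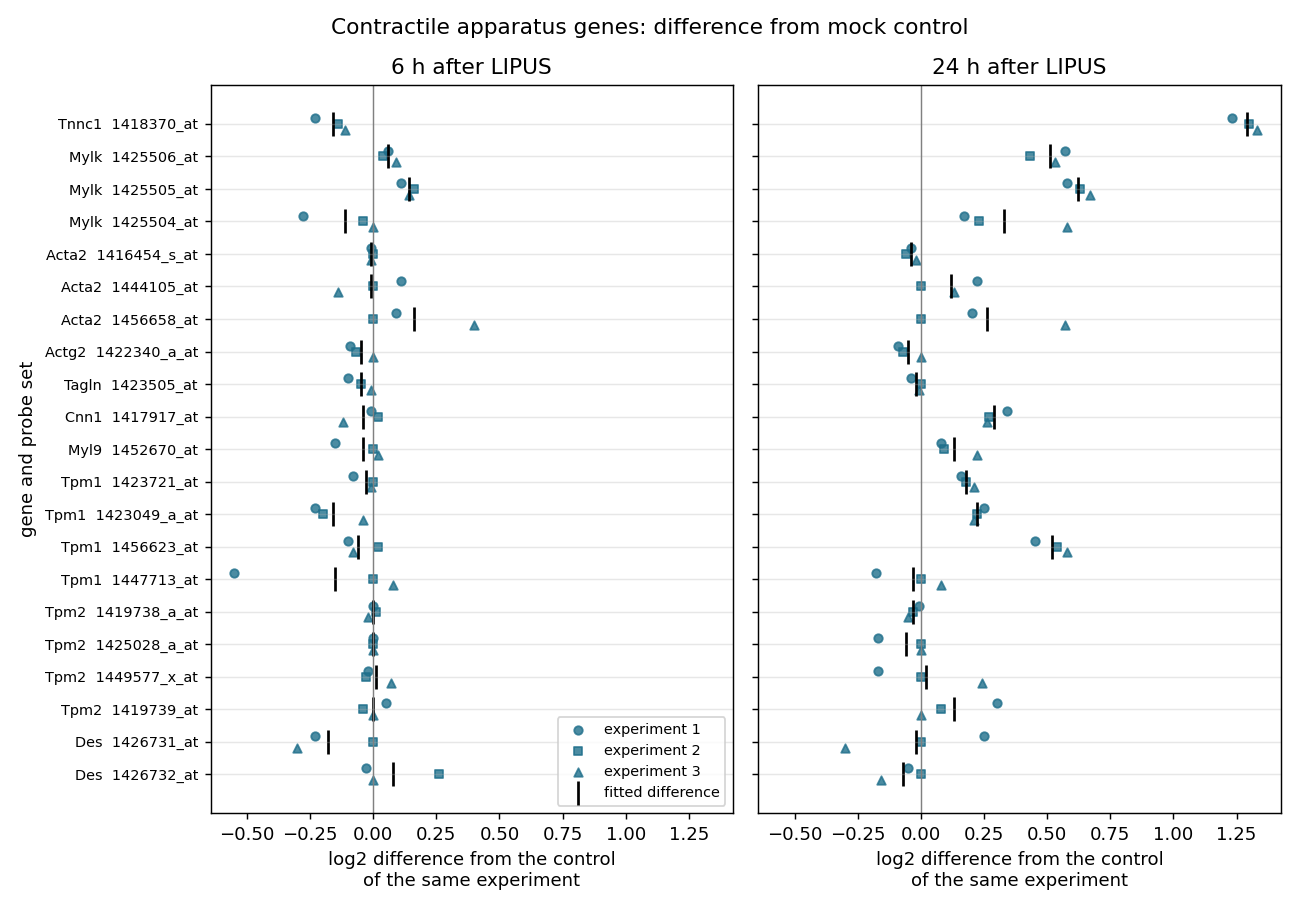
Log2 difference from the control of the same experiment for the 21 probe sets (rows) at 6 h (left) and 24 h (right), with 1 point for each of the 3 experiments and a bar for the fitted difference. At 24 h *Tnnc1* stands alone at 1.23 to 1.33, the 2 brighter *Mylk* probe sets lie at 0.43 to 0.67, and most *Acta2*, *Actg2*, *Tagln* and *Tpm2* points lie near 0.

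*Tnnc1* encodes troponin C of cardiac and slow skeletal muscle, the calcium-binding subunit of troponin. Its log2 signal was 8.74, 8.94 and 8.52 in the control cells of experiments 1, 2 and 3, 8.51, 8.80 and 8.41 at 6 h, and 9.97, 10.24 and 9.85 at 24 h. All 3 arrays at 24 h lay above every other array, and the control and 6 h arrays overlapped. The ratio to the control was 2.35, 2.46 and 2.52 in the 3 experiments, a mean fold of 2.44 ± 0.0864 (SD, n = 3), and the fitted log2 difference was 1.29 (standard error 0.03). Its single probe set, 1418370_at, lay at percentile 87.0 of the mean signal. It was the only one of the 21 with a ratio of at least 1.5 in each experiment, where 0.0955% of all probe sets reached that ratio upward. Nothing is read from this share, because the gene was chosen by its rise on these arrays.

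*Mylk* encodes myosin light chain kinase, the calmodulin-dependent enzyme that phosphorylates myosin regulatory light chains. At probe set 1425505_at the log2 signal was 9.67, 9.71 and 9.35 in control cells, 9.78, 9.87 and 9.50 at 6 h, and 10.25, 10.34 and 10.02 at 24 h. At 1425506_at it was 9.72, 10.07 and 9.60 in control cells and 10.29, 10.50 and 10.13 at 24 h. In both the arrays at 24 h lay above all control arrays. The mean folds were 1.54 ± 0.0479 and 1.43 ± 0.0710 (SD, n = 3), with fitted log2 differences of 0.62 (standard error 0.03) and 0.51 (standard error 0.03). The third probe set, 1425504_at, is below the median of all mean signals and had differences of 0.17, 0.23 and 0.58, higher in every experiment though past the threshold in neither direction. Its signals at 24 h, from 5.04 to 5.25, also lay above those of the control, from 4.66 to 4.91. The 3 probe sets thus had the same direction. With *Tnnc1* they made 4 of the 21 with all arrays at 24 h above all control arrays, where 0.901% of all probe sets had this. Both genes were chosen by their rise on these arrays, so nothing is read from this count.

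*Tpm1* encodes a tropomyosin, the coiled-coil protein that lies along actin filaments, in many spliced forms. Its probe set with the largest difference, 1456623_at, had log2 signals of 7.85, 8.05 and 7.33 in control cells, 7.75, 8.07 and 7.25 at 6 h, and 8.31, 8.59 and 7.91 at 24 h. The groups overlapped because experiment 3 was lower throughout, while within each experiment the 24 h array was the highest. The fitted log2 difference there was 0.52 (standard error 0.04), a mean fold of 1.44 ± 0.0646 (SD, n = 3). The brighter probe sets had smaller differences, 0.16, 0.18 and 0.21 at 1423721_at and 0.25, 0.22 and 0.21 at 1423049_a_at, and only the first of them passed the threshold. The fourth, 1447713_at, has a signal at percentile 20.3 and differences of -0.18, 0 and 0.08. The probe sets of *Tpm1* therefore differed in size, and which spliced forms each of them detects was not examined.

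*Cnn1* encodes calponin, an actin-binding protein of smooth muscle that restrains the myosin ATPase. Its log2 signal was 6.88, 7.29 and 6.85 in control cells, 6.86, 7.31 and 6.72 at 6 h, and 7.22, 7.56 and 7.10 at 24 h. The array at 24 h was above the control of its own experiment each time, by 0.34, 0.27 and 0.26, though the groups overlapped. The fitted log2 difference was 0.29 (standard error 0.04) and the mean fold 1.22 ± 0.0403 (SD, n = 3). *Myl9*, which encodes the regulatory light chain that the kinase acts on in smooth muscle, was higher in each experiment by 0.08, 0.09 and 0.22, from signals of 12.01, 12.17 and 11.86 in control cells, and did not pass. *Cnn1* lost its call with quantile normalization and *Tpm1* lost that of 1423721_at without the intensity trend.

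**Figure D2:**
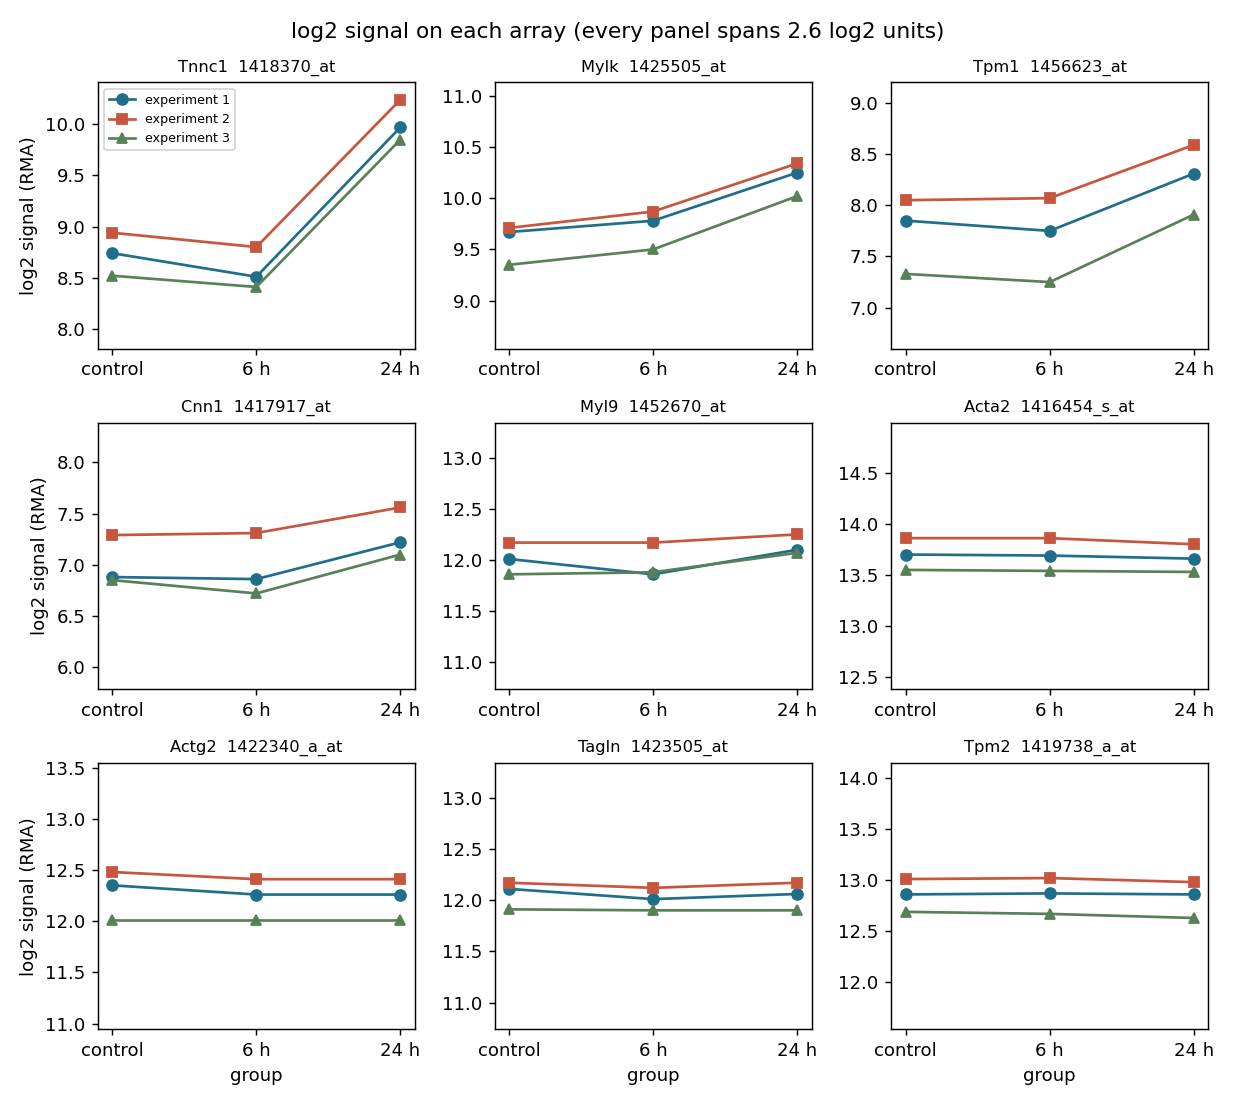
Log2 RMA signal (vertical axis) in control cells and at 6 h and 24 h (horizontal axis) for 1 probe set of 9 genes, with a line for each of the 3 experiments and a vertical axis of the same span in every panel. The probe set shown is the one with the largest difference at 24 h for *Tnnc1*, *Mylk* and *Tpm1*, and the brightest for the other genes. At these probe sets the lines of *Tnnc1*, *Mylk*, *Tpm1* and *Cnn1* turn upward at 24 h, and those of *Acta2*, *Actg2*, *Tagln* and *Tpm2* are flat. The brightest *Tpm1* probe set, not shown, had a fitted difference of 0.18, and a dim *Acta2* probe set, not shown, had 0.26.

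The actins of smooth muscle did not share the rise. *Acta2* encodes smooth muscle alpha-actin, a common marker of contractile fibroblasts, and its brightest probe set, 1416454_s_at, gave 13.70, 13.86 and 13.55 in control cells, 13.69, 13.86 and 13.54 at 6 h, and 13.66, 13.80 and 13.53 at 24 h. The 24 h value was lower than the control by 0.04, 0.06 and 0.02 in the 3 experiments, with a fitted log2 difference of -0.04 (standard error 0.02) that did not pass. The name ending _s_at marks probes that can match more than one transcript family. The other *Acta2* probe sets, 1444105_at and 1456658_at, are below the median of all mean signals and had fitted differences of 0.12 and 0.26, from 0.22, 0 and 0.13 and from 0.20, 0 and 0.57 in the 3 experiments. *Actg2*, the gamma-actin of enteric smooth muscle, gave 12.35, 12.48 and 12.01 in control cells and 12.26, 12.41 and 12.01 at 24 h. Its difference of -0.05 (standard error 0.02) was absent in experiment 3.

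*Tagln*, which encodes the actin-bundling protein transgelin, gave log2 signals of 12.11, 12.17 and 11.91 in control cells and 12.06, 12.17 and 11.90 at 24 h, a fitted difference of -0.02 (standard error 0.02). *Tpm2*, a second tropomyosin gene, had fitted differences of -0.03 at 1419738_a_at and -0.06 at 1425028_a_at, both near the top of the signal range. Its other probe sets had 0.02 at 1449577_x_at and 0.13 at 1419739_at. *Des* encodes desmin, the intermediate filament protein of muscle. It gave 5.82, 5.87 and 5.87 in control cells and 6.07, 5.87 and 5.58 at 24 h at 1426731_at, and its differences of 0.25, 0 and -0.30 went in opposite ways. The dimmer *Des* probe set, 1426732_at, lay at percentile 26.8 and had a fitted difference of -0.07. None of these 7 probe sets of *Tagln*, *Tpm2* and *Des* passed.

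Brightness differed among the members as well as the response. Of the 21 probe sets 8 lay at or above percentile 98 of the mean signal, those of *Acta2*, *Actg2*, *Tagln*, *Myl9*, *Tpm1* and *Tpm2*, and 1 of these 8 passed at 24 h. Of the 7 between percentiles 60 and 98, 5 passed. Over all probe sets 5.99% of the 901 in the top range passed, against 6.56% of the 17114 in the lower range, and the standard deviation of the fitted log2 differences was 0.08 and 0.14. The part of signal height in the differences between members was not tested.

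At 6 h after LIPUS 0 of the 21 probe sets passed limma, and over the whole array 0.0% did. At an unadjusted p under 0.05 there were 5 of the 21, against 3.5% of all probe sets. The methods' t-test, run here unpaired on the log2 signals, gave 0 of the 21 at that level. The study took ratios within each experiment, so its own calls at 6 h can differ from this. The fitted log2 differences ran from -0.18 to 0.16 with a median of -0.03. *Tnnc1* was below the control in every experiment, with differences of -0.23, -0.14 and -0.11 and a fitted difference of -0.16 (standard error 0.03, adjusted p = 0.959 from limma). *Mylk* was above it at 1425505_at in every experiment, by 0.11, 0.16 and 0.14, with a fitted difference of 0.14 (standard error 0.03, adjusted p = 0.959 from limma). *Tpm1* at 1423049_a_at had differences of -0.23, -0.20 and -0.04. The brighter pair of *Mylk* probe sets was higher in all 3 experiments, 2 of the 21 against 6.48% of all probe sets. *Tnnc1*, *Tagln* and this *Tpm1* probe set were lower in all 3, 3 of the 21 against 4.24%. In experiment 1, 6 members were higher and 15 lower, where 49.0% of all probe sets were higher. In experiment 2, 7 were higher, 7 lower and 7 equal, where 26.6% of all probe sets were higher and 49.5% equal. In experiment 3, 6 were higher, 10 lower and 5 equal, where 27.3% of all probe sets were higher and 43.2% equal. The members thus had no common direction at this time, with some higher and some lower in each experiment.

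Between 6 h and 24 h 7 of the 21 probe sets passed, all higher, where 2.02% of all probe sets passed in either direction and 1.14% were higher. This comparison shares the 24 h arrays that guided the choice, so nothing is read from the count. *Tnnc1* rose by 1.46, 1.44 and 1.44 log2 units, a mean fold of 2.72 ± 0.0183 (SD, n = 3). *Tpm1* rose at 3 probe sets by 0.21, 0.38 and 0.58, *Mylk* at 2 by 0.45 and 0.49, and *Cnn1* by 0.33. *Myl9* had a difference of 0.17 and did not pass. *Actg2* had a fitted difference of 0 and *Tagln* of 0.03. The count was 0 without experiment 1 and 1 without experiment 2, where that over all probe sets went from 909 to 0 and 44.

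The members set side by side by experiment at 24 h include *Tnnc1* and *Mylk*, chosen by their rise, so nothing is read from the counts. In experiment 1, 13 members were higher than the control and 8 lower, where 52.8% of all probe sets were higher. In experiment 2, 10 were higher, 3 lower and 8 equal, where 27.0% of all probe sets were higher and 48.4% equal. In experiment 3, 13 were higher, 5 lower and 3 equal, where 30.7% of all probe sets were higher and 31.9% equal. Those higher in all 3 experiments numbered 9, where 10.3% of all probe sets were, and they were the probe sets of *Tnnc1*, *Mylk*, *Cnn1* and *Myl9* and 3 of the 4 of *Tpm1*. Those lower in all 3 numbered 2, where 6.84% of all probe sets were, and they were the brightest probe sets of *Acta2* and *Tpm2*, with differences from -0.06 to -0.01. The range in a single experiment was wide, from -0.18 to 1.23 in experiment 1, from -0.07 to 1.30 in experiment 2 and from -0.30 to 1.33 in experiment 3. The standard deviation over all probe sets was 0.22, 0.12 and 0.22 in the same order. The genes therefore formed a graded set at 24 h, with *Tnnc1* far above the rest and *Mylk* and 1 probe set of *Tpm1* next. Then came *Cnn1* and the brighter *Tpm1* probe sets, with little difference at the brightest probe sets of the actins, *Tagln* and *Tpm2*.

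The genes closest to *Tnnc1* in pattern were found among other genes by the root mean square distance between the 6 log2 differences from the control, over 20048 probe sets at or above the median signal. They were *Igf2*, a growth factor gene, at a distance of 0.232, *F13a1* at 0.233, *Crabp1* at 0.239, *Apod* at 0.240 and *Htra1* at 0.261, with fitted log2 differences at 24 h of 1.05, 1.29, 1.12, 1.04 and 0.95. At 6 h the same genes had 0.05, 0.16, 0.01, 0.08 and -0.04, where *Tnnc1* had -0.16. *F13a1* encodes a subunit of a clotting transglutaminase, *Crabp1* a retinoic acid-binding protein, *Apod* an apolipoprotein and *Htra1* a secreted protease, and no gene of the 5 is in the sarcomere list used below. The probe set of *Mylk* with the largest rise was closest to *Ralgps2*, at 0.0426, and then to *Myc*, the growth-regulating transcription factor gene, at 0.0588. *Sned1*, *Pdp1* and *Islr* followed at 0.0769, 0.0779 and 0.0781. *Tnnc1* and *Mylk* were 0.514 apart, and the member closest to *Mylk* was *Tpm1* at 1456623_at, at 0.158. All these distances share the same control arrays.

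Other genes of the same machinery were taken from 6 lists written by function, which hold 177 measured genes besides the members, each at its probe set of the highest mean. At 24 h 12 of the 177 were higher and 4 lower, where 4.14% of all genes passed in either direction, 2.57% higher and 1.57% lower, and the median log2 difference was 0 over the 177 and over all genes. The count of 16 was 0 without the replicate block, 0 with only the 6 arrays of the groups compared, 0 without experiment 1 and 2 without experiment 2. At 6 h 0 of the 177 passed limma. At an unadjusted p under 0.05 from limma there were 53 of the 177 at 24 h, against 12.6% of all probe sets, and 10 at 6 h, against 3.5%. These shares are over bright and dim probe sets alike, while 119 of the 177 lay at or above the median signal. Between 6 h and 24 h 14 passed, where 3.24% of all genes did. That count was 0 without the block, 0 with only the 6 arrays and 0 without experiment 1.

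**Figure D3:**
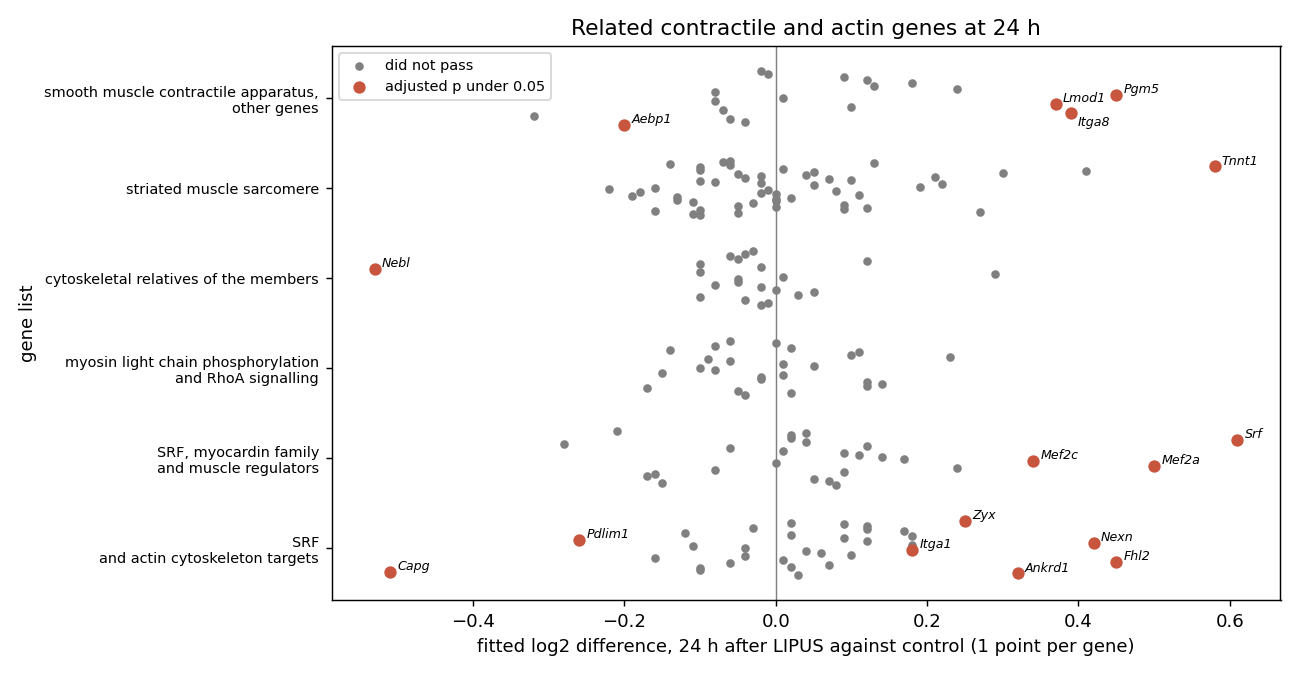
Fitted log2 difference at 24 h against the control (horizontal axis) for the genes of 6 lists (rows), with 1 point per gene and larger colored points for genes with an adjusted p under 0.05. *Srf* at 0.61, *Tnnt1* at 0.58 and *Mef2a* at 0.50 lie farthest to the right, and *Nebl* at -0.53 and *Capg* at -0.51 farthest to the left.

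Striated muscle genes other than *Tnnc1* were mostly dim. Of 52 measured genes of the sarcomere 39 lay below the median signal, and 1 passed at 24 h, with a list median of -0.02. That gene was *Tnnt1*, which encodes troponin T of slow skeletal muscle, the subunit that ties troponin to tropomyosin. Its log2 signal was 5.86, 5.81 and 5.57 in control cells, 5.73, 6.06 and 5.74 at 6 h, and 6.33, 6.56 and 6.11 at 24 h, so that all arrays at 24 h lay above the control. The fitted log2 difference was 0.58 (standard error 0.08, adjusted p = 0.0139 from limma). The troponin C gene of fast muscle, *Tnnc2*, had 0.41 (adjusted p = 0.0593 from limma) at percentile 40.0 of the signal. The troponin I genes *Tnni1*, *Tnni2* and *Tnni3* had -0.10, 0.01 and -0.10, and *Tnnt2* and *Tnnt3* had -0.06 and -0.14.

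Among 19 other genes of the smooth muscle apparatus 3 were higher and 1 lower at 24 h, with a list median of 0.01. *Lmod1*, which encodes the actin nucleator leiomodin of smooth muscle, rose by 0.42, 0.34 and 0.34 in the 3 experiments (fitted 0.37, standard error 0.04, adjusted p = 0.00555 from limma). *Pgm5*, which encodes an adherens junction protein of muscle, rose by 0.45 (adjusted p = 0.00979 from limma), and *Itga8*, an integrin subunit gene, by 0.39 at one of its 2 probe sets (adjusted p = 0.00182 from limma). *Aebp1*, which encodes a matrix protein of the aorta and other tissues, fell by 0.20 at 1 of its 3 probe sets (adjusted p = 0.0154 from limma). The genes *Myh11* and *Myocd*, which mark mature smooth muscle, lay below the median signal with differences of -0.08 and 0.01. Caldesmon, *Cald1*, was among the brightest probe sets and had -0.04.

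Of 26 measured regulators of muscle genes 3 were higher at 24 h and 0 lower, with a list median of 0.05. *Srf* itself had log2 signals of 8.68, 8.98 and 8.34 in control cells, 8.59, 9.02 and 8.60 at 6 h, and 9.26, 9.60 and 8.97 at 24 h. The array at 24 h was the highest of each experiment, and the lowest array at 24 h lay just under the highest control. The fitted difference was 0.61 (standard error 0.06, adjusted p = 0.00525 from limma), and both of its probe sets passed. *Mef2a* and *Mef2c*, which encode MADS-box factors of muscle and other tissues, rose by 0.50 and 0.34 (adjusted p = 2.38e-04 and 0.0089 from limma), at 4 of 6 and 4 of 5 of their probe sets. The SRF cofactor genes *Mrtfa* and *Mrtfb* had 0.14 and 0.11 and did not pass. *Myod1*, *Myf5*, *Myog* and *Myf6*, which drive skeletal muscle fate, were all below the median signal.

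Of 33 genes of SRF and actin cytoskeleton targets 5 were higher and 2 lower, with a list median of 0.04. *Fhl2*, which encodes a LIM protein that binds actin-linked factors, rose by 0.45 (standard error 0.03, adjusted p = 9.51e-04 from limma), *Nexn*, an actin-binding protein gene, by 0.42 and *Ankrd1* by 0.32. *Capg*, which encodes an actin-capping protein, fell by 0.51 (adjusted p = 0.00352 from limma). *Zyx* at 0.25 and *Itga1* at 0.18 were the other higher genes and *Pdlim1* at -0.26 the other lower one. *Capg*, *Zyx* and *Itga1* passed at 1 of 2 probe sets each and *Pdlim1* at 1 of 3. Among 22 cytoskeletal relatives of the members 0 were higher and 1 was lower. That gene was *Nebl*, which encodes nebulette, at -0.53 (adjusted p = 0.00186 from limma) at 1 of its 3 probe sets. The nonmuscle actins *Actb* and *Actg1* had -0.02 and -0.01, and *Tpm3* and *Tpm4* had -0.06 and -0.04. Of 25 genes of myosin light chain phosphorylation and RhoA signalling 0 passed limma. An unadjusted p under 0.05 was reached by 5 of the 25, against 12.6% of all probe sets. Their brightest genes, *Ppp1ca* for a catalytic subunit of protein phosphatase 1 and *Cfl1* for the actin-severing cofilin, had -0.06 and -0.02. *Ppp1r12a*, which encodes a targeting subunit of myosin phosphatase, was higher at 2 of its 4 probe sets. Neither of them was the brightest, which had 0.23 (adjusted p = 0.0643 from limma).

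Markers of other cells that could carry contractile genes were looked at in the same arrays. Of 9 skeletal muscle markers 7 lay below the median signal and 0 passed limma at 24 h (0 at an unadjusted p under 0.05), and their summed linear signal was 231 to 259 in control cells, 230 to 246 at 6 h and 224 to 247 at 24 h. *Ckm* had 0.09 and *Acta1* -0.10. Of 9 markers of pericytes and vascular smooth muscle 5 lay below the median, *Myh11* and *Rgs5* among them. Their summed signal was 3995 to 5623, 4313 to 5718 and 4172 to 5482 in the same order. *Pdgfrb*, the growth factor receptor gene that pericytes share with many mesenchymal cells, lay at percentile 98.6 and made up 82.1% to 86.6% of that sum, with a difference of -0.03 at 24 h. Without it the sums were 715 to 858, 745 to 971 and 587 to 735. *Cspg4* was the one that passed, with a fall of 0.43 at 24 h (adjusted p = 0.00231 from limma). Of 6 endothelial markers 5, and of 7 blood cell markers 5, lay below the median, with 0 passing limma and 0 at an unadjusted p under 0.05 in either list. *Kdr* and *Tek* had -0.14 and -0.03, and *Csf1r* and *Cd3e* 0.09 and 0.03. Summed endothelial signals were 88 to 105 in control cells, 77 to 105 at 6 h and 82 to 104 at 24 h, and blood cell signals 129 to 188, 133 to 172 and 144 to 165. Of 14 listed osteoblast markers 9 entered, without *Bglap* and *Spp1*. They summed to 28058 to 36910 in control cells, 28121 to 36988 at 6 h and 28768 to 37510 at 24 h. *Col1a2* made up 53.3% to 59.4% of that sum. Without it the sums were 11397 to 16934, 11613 to 17008 and 12260 to 17534. Of the 9 osteoblast markers, 0 passed limma at 24 h and 3 had an unadjusted p under 0.05, against 12.6% of all probe sets. Their *Col1a1* had 0.07 and *Col1a2* had 0 at 24 h.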

How the data were processed

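Transcripts were measured in MC3T3-E1 cells on Affymetrix mouse expression arrays. The deposited log2 values are signals that the authors made by RMA, per the labels, and its version and settings are not given in the sources used here. Of 45101 probe sets the 64 controls did not enter. Gene symbols are those of the platform annotation, updated through gene identifiers, with 1 symbol for 34945 probe sets, several for 932 and none for 9160. Differences were fitted with limma 3.58.1 in R 4.3.3 (lmFit, then eBayes with its trend on mean signal). All 9 arrays entered 1 fit with the replicate number as a fixed block, 4 residual and 3 prior degrees of freedom, and Benjamini-Hochberg adjustment over 45037 probe sets. The study took ratios within each of its experiments. Arrays of the same number deviated together from their group means (correlations of 0.701 to 0.933 over probe sets), and 9 of 9 arrays correlated best with one of their own number. The p-values rest on 3 arrays in each group, which limit the precision, and measure only the spread between these arrays, which may be technical.

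The members and the lists were chosen with earlier results of these data known. Named genes were all members, up to 4 passing genes of each list with the largest difference or, where none passed, the 2 of the highest signal, and the 5 closest to *Tnnc1* and to *Mylk*. Outside this rule, *Tnnc2*, *Tnni1*, *Tnni2*, *Tnni3*, *Tnnt2*, *Tnnt3*, *Myh11*, *Myocd*, *Cald1*, *Mrtfa*, *Mrtfb*, *Myod1*, *Myf5*, *Myog*, *Myf6*, *Zyx*, *Itga1*, *Pdlim1*, *Actb*, *Actg1*, *Tpm3*, *Tpm4*, *Ppp1r12a*, *Rgs5* and *Pdgfrb* were named after their values were seen. In simulated data of the 24 h comparison over 45037 probe sets, the changed ones were drawn only from those at or above the median signal. Noise was normal with the residual spread of each probe set, without the repeated values of the real arrays. The fit recovered 16, 40, 47 and 48 of 50 probe sets changed by 1.2-fold, 1.5-fold, 2-fold and 3-fold, and called 10 unchanged ones. Recovery below the median signal, where some members lie, was not simulated. Alternatives were the block, the trend, the arrays and probe sets in the fit, quantile normalization, the ratio of 1.5 and leaving out each experiment. The methods' t-test was a further alternative, run unpaired on the log2 signals.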

Additional observations from a re-analysis of the deposited data

Results flagged for a closer look

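*Tnnc1* at 1418370_at lay below the control in every experiment at 6 h and above it in every experiment at 24 h. Its signal was 1.44 log2 units higher at 24 h than at 6 h. *Tpm1* at 1423049_a_at had the same turn, with 0.38 log2 units between the times. Other *Tpm1* probe sets did not lie below the control in every experiment at 6 h. Both passed limma between 6 h and 24 h, which is a description here because the 24 h arrays guided the choice of the genes, and the difference was not tested on other arrays.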

How the results depend on the processing

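The number of member probe sets past the threshold depended on the pairing by experiment and on the arrays in the fit. The fitted differences could change only with quantile normalization or with an experiment left out, since the design is balanced. At 24 h against the control the count of 6 became 0 with no replicate block, 1 with only the 6 arrays compared, 0 by the methods' t-test after Benjamini-Hochberg adjustment and 1 by the ratio of 1.5, and it ranged from 0 to 7 when 1 experiment was left out. At 24 h against 6 h the count of 7 became 0, 1, 0 and 1 under the same settings, 4 by the methods' t-test with no adjustment, and ranged from 0 to 7. Of the 177 genes of the lists the count of 16 at 24 h became 0 with no replicate block, 0 with only the 6 arrays, 4 by the methods' t-test with no adjustment, 0 with adjustment and 0 by the ratio of 1.5, and ranged from 0 to 22. The count of 14 between 6 h and 24 h became 0, 0, 6, 0 and 0 under these settings and 9 with no intensity trend, and ranged from 0 to 20. The cause of these changes was not tested. At 6 h 0 members and 0 list genes passed in every setting. *Tnnc1* passed in every limma fit but those with no replicate block and without experiment 1, with differences from 1.27 to 1.32, and did not pass the t-test after adjustment. Of the 21 probe sets 5 lay below the median signal, and 0 of these passed at 24 h.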
